A study of Arabidopsis thaliana with 6 samples.

Results

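The transcripts described here are those of 44 Arabidopsis thaliana genes that write, read, use or remove DNA methylation and its small RNA guides. They were taken by locus identifier from the 33602 loci counted. Messenger RNA was sequenced from 6 individual plants of the Columbia-0 accession, 1 library per plant. The wild-type group held plants 22, 23 and 24, and the msh1 memory group held plants 31, 32 and 33, which the labels call isogenic with the wild type. MSH1 encodes a MutS-type protein of plastids and mitochondria. As background, msh1 memory plants descend from plants in which MSH1 was suppressed, and they keep an altered phenotype after the suppressing transgene has been lost. All plants were stratified at 4 °C for 2 days, grown at 22 °C, and frozen whole at early bolting. MSH1 itself (AT3G24320) had a mean of 14.1 ± 2.94 CPM (counts per 1000000 counts of the library, after scaling) over the wild-type plants, and of 14.2 ± 2.34 over the memory plants (SD over 3 plants).

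In plants, DNA methylation is kept in different sequence contexts by different enzymes. MET1 copies CG methylation at replication, CMT3 and CMT2 read histone H3 lysine 9 methylation to keep CHG and CHH methylation, and DRM2 writes methylation at sites that small RNAs mark. In that last route, RNA-directed DNA methylation, the plant polymerase Pol IV makes the precursors of the small interfering RNAs (siRNAs), Argonaute proteins carry them, and Pol V makes the scaffold transcripts to which they pair. DNA glycosylases of the ROS1 family cut methylated cytosines out again. Because a memory state that passes to progeny without the transgene is often discussed in terms of DNA methylation, the comparison asks whether the transcripts of this machinery differ between memory and wild-type plants.

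The libraries held 4060216 to 5806617 counts. Where a gene had no read, its level may still be as high as 3 counts, or 0.517 to 0.739 CPM depending on the library, which covers counting error only. The 44 genes together took 823.6 to 1032 CPM of a library's unscaled total. Wild-type plant 23 was unlike the rest. It lay at 68.4 on the first principal component, where the others lay between -25.0 and -4.46. Its summed level of 12 markers of dividing cells was 116 CPM, against 212 to 267 CPM in the other plants. PYK10, a glucosidase gene abundant in roots, had 1 read in plant 23 and 47 to 115 reads elsewhere, although all plants are labelled as whole. The leaf genes RBCS1A, RCA and LHCB3 were abundant in every plant and highest in plant 23 (34588 CPM in sum, against 24788 to 29969 CPM). Many fold changes below are therefore also given without this plant, while the spreads among plants are given only with it. The labels name the plants as separate individuals and give no batch.

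No silencing gene passed the test of a difference between memory and wild-type plants. A total of 41 of the 44 genes had enough reads to be tested, and 0 of 41 passed an adjusted p of 0.05 (edgeR quasi-likelihood test, adjusted over all 16928 genes tested), where 1.82% of all genes did (0.449% higher and 1.37% lower in memory plants). At an unadjusted p under 0.05 there was 1 gene, NRPD1, against 12.8% of all genes. DESeq2 called 0 of the 43 members for which it gave a p. Over all genes it gave a p for 22460 and an adjusted p for 18643, of which 2.81% passed. In 3 of 41 the plants of the groups did not overlap, which is 7.32%, against 19.7% of all genes tested. NRPD1 and NRPD2 were lower in memory plants without overlap (2 of 41, background 10.2%), and HDA6 was higher (1 of 41, background 9.52%). Of the log2 fold changes (memory minus wild type) 21 were positive and 20 negative. Their median was 0.03, beside 0.01 for all genes tested. Without wild-type plant 23, 20 were positive and 21 negative, and the median was -0.03. Single fold changes ran from -0.62 for NRPD1 to 0.75 for CLSY2.

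How large a difference the data allow can be read from the intervals. For 31 of 41 genes the 95% interval of the fold change lay within 2-fold in both directions, and for 11 it lay within 1.5-fold. Over all tested genes these shares were 73.6% and 36.0%. AGO4, ROS1, NRPD2, HDA6, SUVH9 and DML2 were among the most narrowly bounded, and lay within 1.5-fold. The intervals of 10 genes reached a 2-fold change. For VIM1, VIM3, CLSY2, CLSY3, AGO6 and DML3 this was on the higher side, and for SUVH5, NRPD1, CLSY1 and MBD7 on the lower side. Without plant 23 again 0 of 41 passed, where 5.93% of all genes did. In that fit 2 of 41 had an unadjusted p under 0.05, MET1 and DML3, against 18.3% of all genes, and 11 of 41 changed the sign of their fold change.

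**Figure D1:**
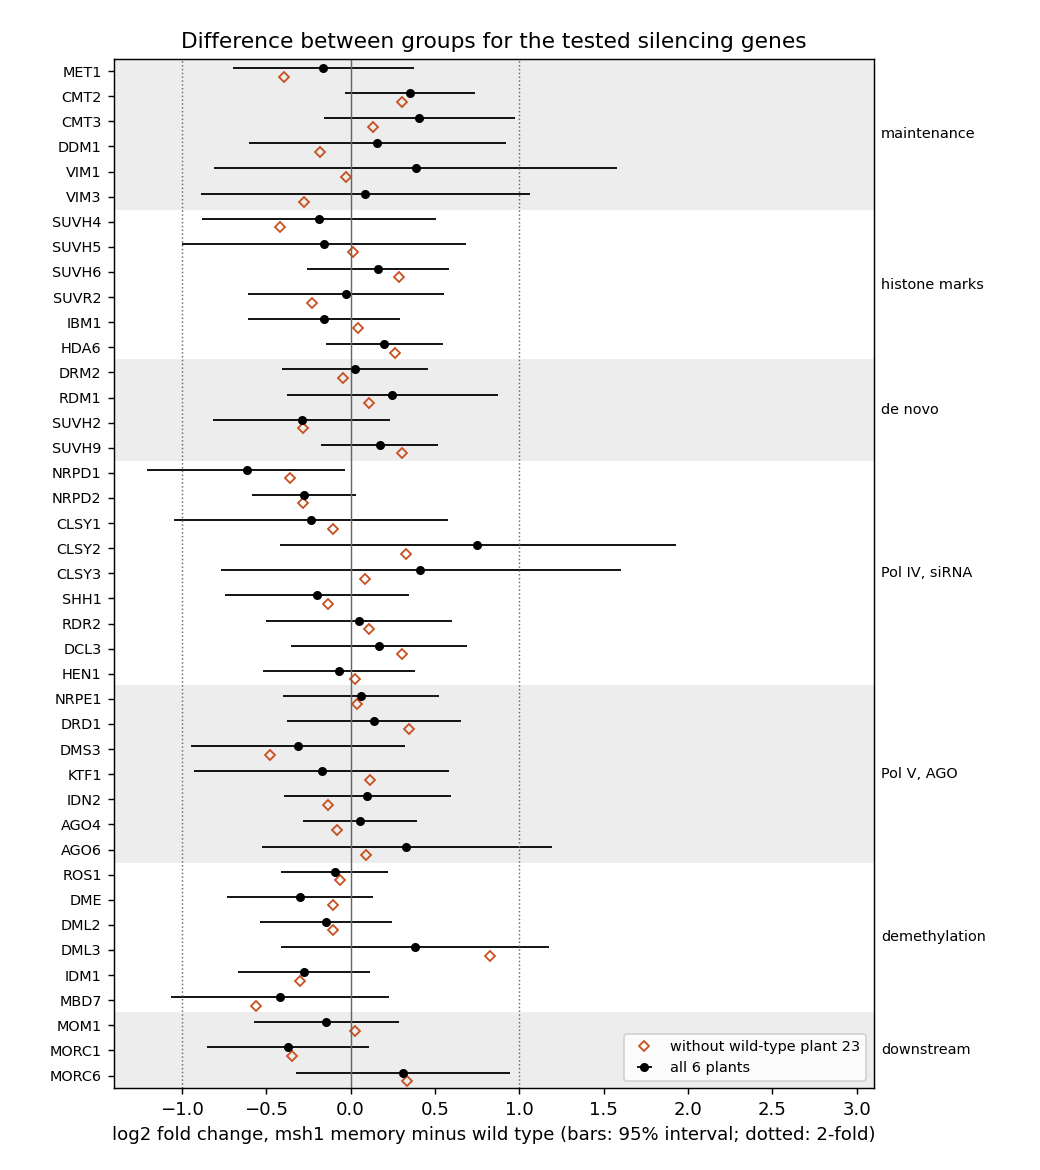
Log2 fold change of each of the 41 tested silencing genes (x axis, msh1 memory minus wild type, 0 means equal levels), grouped by step of the pathway. Black points and bars give the estimate and its 95% interval from all 6 plants, and open diamonds give the estimate without wild-type plant 23. The estimates run from -0.62 for NRPD1 to 0.75 for CLSY2, and the bar of NRPD1 is the 1 that does not cross 0.

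Levels per length of transcript covered a wide range, and genes of the same step were often far apart. In CPM per kilobase of exon (RPKM, mean ± SD over the 6 plants), the DNA glycosylase gene ROS1 was highest, at 19.5 ± 2.09. AGO4 followed at 17.4 ± 2.04, SUVH9 at 14.1 ± 1.85, DME at 13.5 ± 3.09, HDA6 at 12.3 ± 1.29 and NRPD2 at 10.2 ± 1.32. The ranges over plants of neighbours in this order overlapped, so the order within these 6 is not firm. At the other end, 5 genes lay below 1 RPKM, namely CLSY2 (0.652 ± 0.301), VIM2 (0.595 ± 0.311), CLSY3 (0.518 ± 0.247), AGO9 (0.180 ± 0.184) and DRM1, which had no read.

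**Figure D2:**
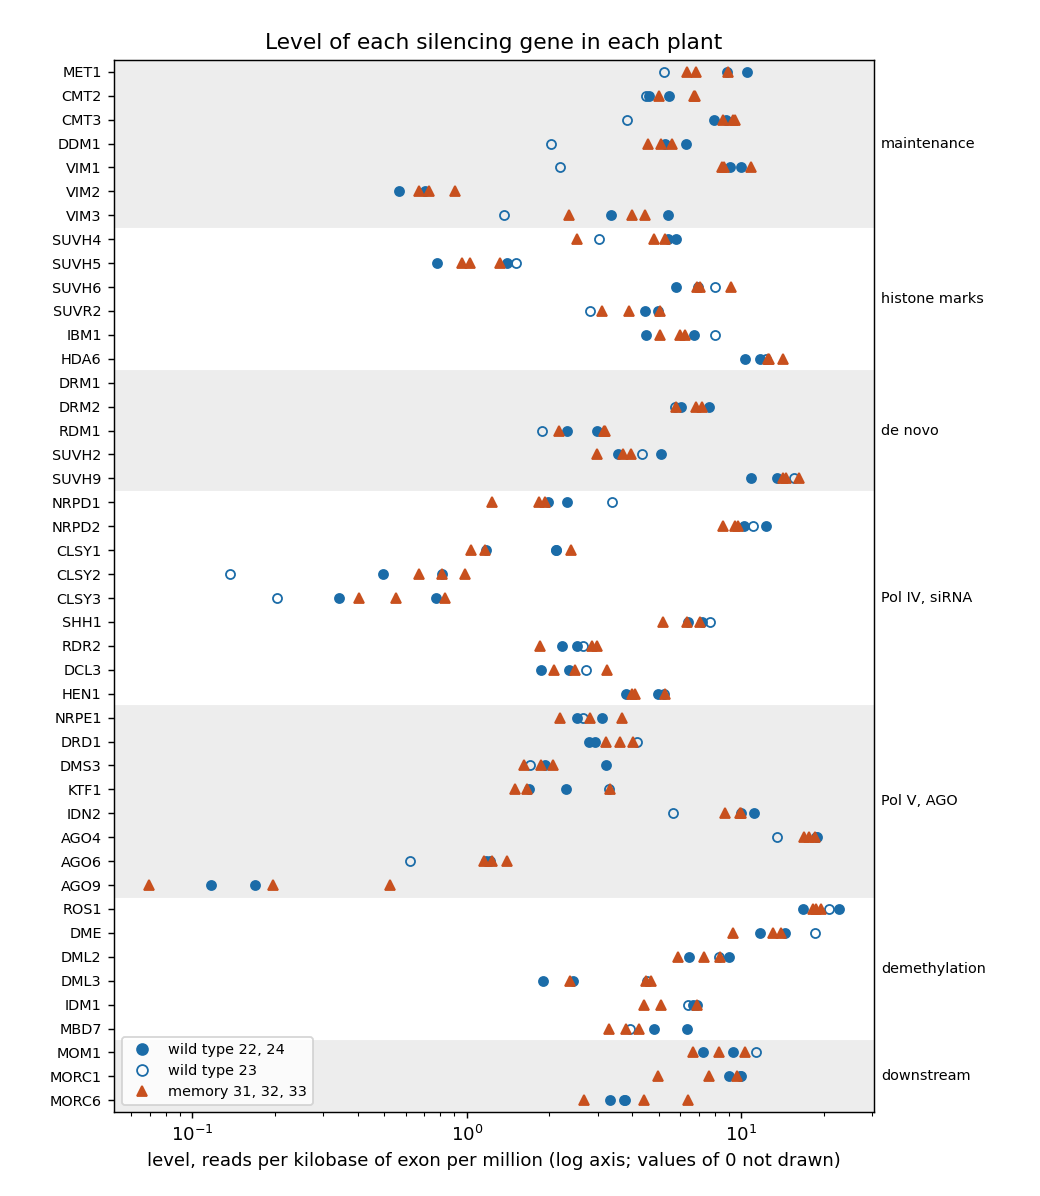
Level of each of the 44 silencing genes (y axis) in each plant, as CPM per kilobase of exon (RPKM) on a log axis. Filled circles are wild-type plants 22 and 24, open circles are wild-type plant 23, and triangles are memory plants 31, 32 and 33. Levels run from ROS1 at 16.8 to 22.7 down to DRM1 with no read, and plant 23 is the lowest of the 6 for all 6 tested maintenance genes.

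In the step that maintains methylation, wild-type plant 23 was the lowest plant for each tested gene. The step holds the CG methyltransferase gene MET1, the chromomethylase genes CMT2 and CMT3, the SNF2 remodeller gene DDM1, which gives methyltransferases access to heterochromatin, and VIM1, VIM2 and VIM3, whose proteins bind hemimethylated DNA and recruit MET1. None of the 6 tested genes passed. The log2 fold change was positive for 5 of them, and the median was 0.25. Without plant 23 the median was -0.11 and 4 of 6 were negative.

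CMT2 (AT4G19020, chromosome 4, 10414428 to 10421265) had the smallest p of the step. Its CPM values were 23.6, 19.3 and 19.8 in plants 22, 23 and 24 and 21.6, 29.4 and 29.1 in plants 31, 32 and 33. Memory plants 32 and 33 were above all wild-type plants and plant 31 was not, so the groups overlapped. Its log2 fold change was 0.35 (SE 0.177, edgeR adjusted p = 0.447). CMT3 (AT1G69770, chromosome 1, 26248118 to 26253687) stood at 27.0, 11.8 and 24.4 CPM in wild type and at 28.6, 29.0 and 26.4 CPM in memory plants. Every plant other than plant 23 lay between 24.4 and 29.0 CPM. Its log2 fold change of 0.41 (SE 0.257, edgeR adjusted p = 0.573) was 0.13 without plant 23.

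In plant 23 all 6 tested maintenance genes had their lowest value. Chosen after their values were seen, VIM1 (AT1G57820, chromosome 1, 21413981 to 21418115) had 28 reads in that plant and 91 to 138 in each of the other 5, and DDM1 (AT5G66750, chromosome 5, 26648897 to 26653191) had 29 against 59 to 97. VIM1 thus stood at 23.9% of the median of the other plants, VIM3 at 34.3%, DDM1 at 38.4%, CMT3 at 43.7%, MET1 at 59.0% and CMT2 at 82.0%. The summed CPM of the step was 71.7 in plant 23 and 122 to 154 in the others. In sum the dividing-cell markers were low in plant 23 as well, at 45.7% of the median of the other plants. Of the 12 markers 11 were lowest in plant 23, but to unlike degrees. The cyclin gene CYCB1;1 stood at 4.18%, with 1 read, and the cytokinesis syntaxin gene KNOLLE at 19.8%. Among replication genes PCNA1 stood at 29.1%, MCM7 at 47.8%, PCNA2 at 51.1% and MCM5 at 83.1%. MCM2, at 93.1%, was not lowest there. The part of dividing cells in these values was not tested. In whole plants, fewer cells of a type and less RNA per cell cannot be told apart. Over all tested genes plant 23 was lowest in 25.6%, highest in 23.7%, and stood below 50% of the median of the others in 8.21%.

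MET1 (AT5G49160, chromosome 5, 19932114 to 19938470) shows how far 1 plant sets the value. Its CPM was 53.3, 26.5 and 44.9 in wild type and 32.1, 34.6 and 45.1 in memory plants. The groups overlapped, and the log2 fold change was -0.16 (SE 0.242, edgeR adjusted p = 0.844). Without plant 23 it was -0.39 with an unadjusted p of 0.0246 and an edgeR adjusted p of 0.185. Without plant 22, the highest plant, the sign turned and the log2 fold change was 0.056 (edgeR adjusted p = 0.953). VIM3 stood at 7.56, 3.09 and 12.2 CPM against 5.34, 10.1 and 9.02 CPM. VIM2 was too low to test, with 7, 0 and 9 reads against 7, 10 and 7. Of its 150-base exon windows 42.5% also occur in the neighbouring copy VIM4, which had no read in any plant, so reads of VIM2 may be undercounted or shared.

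**Figure D3:**
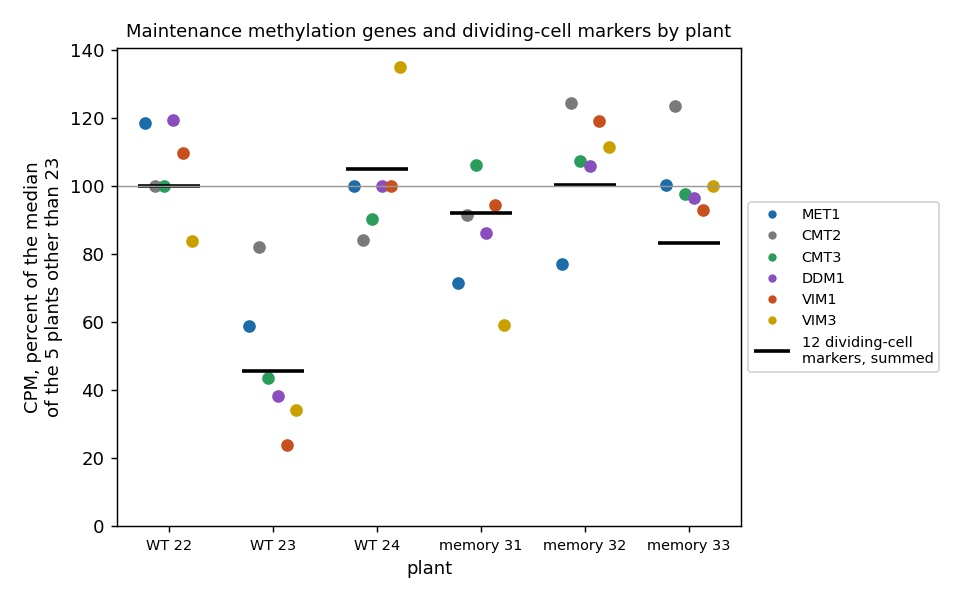
CPM of the 6 tested maintenance genes (coloured points) and of 12 dividing-cell markers in sum (black bars) in each plant (x axis), as a percentage of the median of the 5 plants other than wild-type plant 23 (y axis). In plant 23 the genes stand at 23.9% (VIM1) to 82.0% (CMT2) and the markers at 45.7%, while in memory plants the genes lie between 59.3% and 125%.

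The 250 bases before the annotated start of MET1, CMT3 and VIM1, the maintenance genes with the highest levels per length, are shown because these genes were low together in plant 23, and those of ROS1, which was not low there, are shown beside them. They were read from TAIR10.1 by locus and are printed 5′ to 3′ along the gene's own strand, from chr5:19931864-19932113 (plus strand), chr1:26253688-26253937 (minus strand), chr1:21418116-21418365 (minus strand) and chr2:15314808-15315057 (minus strand). Capitals mark a match to an E2F site.
MET1: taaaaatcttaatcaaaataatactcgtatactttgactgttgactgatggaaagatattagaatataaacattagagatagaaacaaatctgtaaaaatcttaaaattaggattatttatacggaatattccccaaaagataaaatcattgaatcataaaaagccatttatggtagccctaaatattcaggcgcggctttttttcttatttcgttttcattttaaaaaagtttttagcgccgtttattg
CMT3: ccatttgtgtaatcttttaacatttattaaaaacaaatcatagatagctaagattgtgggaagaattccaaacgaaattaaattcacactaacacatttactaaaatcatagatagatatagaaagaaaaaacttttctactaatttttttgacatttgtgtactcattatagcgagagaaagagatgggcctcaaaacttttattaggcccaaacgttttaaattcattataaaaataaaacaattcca
VIM1: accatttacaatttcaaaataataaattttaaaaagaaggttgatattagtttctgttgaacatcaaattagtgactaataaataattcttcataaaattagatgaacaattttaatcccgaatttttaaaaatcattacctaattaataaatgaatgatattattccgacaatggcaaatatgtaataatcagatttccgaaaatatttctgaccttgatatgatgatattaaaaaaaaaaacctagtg
ROS1: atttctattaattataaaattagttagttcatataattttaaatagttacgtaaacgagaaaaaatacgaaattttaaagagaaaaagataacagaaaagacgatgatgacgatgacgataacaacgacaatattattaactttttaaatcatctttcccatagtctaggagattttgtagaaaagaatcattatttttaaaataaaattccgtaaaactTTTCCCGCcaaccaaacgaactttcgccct
E2F factors bind near genes of DNA replication. The forms TTTCCCGC, TTTGGCGC and TTTGCCGC of the site were searched on both strands from 250 bases before to 50 bases after the start. CMT3 held TTTGGCGC 22 bases after its start and ROS1 held TTTCCCGC 30 bases before its start. No other member held one of these strings of letters, so the share was 2 of 44 (4.55%), beside 1.55% of 27443 promoters of protein-coding genes. The evening element AAAATATCT of clock-controlled genes was found in CLSY1 and MORC1 (4.55% of members, 2.82% of all promoters), and the G-box CACGTG in CMT2 and DML2 (4.55% and 7.68%). These are matches of letters and carry no test.

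Genes that set or remove histone marks beside DNA methylation had small fold changes, from -0.19 for SUVH4 to 0.20 for HDA6, and none passed. SUVH4, SUVH5 and SUVH6 are the H3 lysine 9 methyltransferases whose mark CMT3 and CMT2 read, SUVR2 is a related SET domain protein, IBM1 removes the mark from gene bodies and HDA6 is a histone deacetylase. Of the 6 fold changes 2 were positive and 4 negative, and the median was -0.09. Without plant 23, 4 were positive and 2 negative, and the median was 0.03. HDA6 (AT5G63110, chromosome 5, 25315506 to 25318347) was the 1 member with all memory plants above all wild-type plants, at 26.5, 23.3 and 23.6 CPM against 21.8, 23.0 and 19.1 CPM. The lowest memory plant stood at 23.3 and the highest wild-type plant at 23.0 CPM, the log2 fold change was 0.20 (SE 0.160, 95% interval -0.15 to 0.55), and the edgeR adjusted p was 0.662. HDA6 overlaps an exon of AT5G63100 on the same strand, so some reads may be shared. SUVH6 stood at 18.5, 21.5 and 15.5 CPM in wild type and 18.4, 24.5 and 19.0 CPM in memory plants, with overlapping groups (log2 fold change 0.16, SE 0.194, edgeR adjusted p = 0.799). Chosen after its values were seen, IBM1 stood at 31.3, 37.5 and 20.9 CPM against 27.8, 23.5 and 29.1 CPM, and all memory plants lay inside the wild-type range.

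In the de novo step the methyltransferase gene DRM2 was read in every plant and its paralogue DRM1 in none. DRM2 (AT5G14620, chromosome 5, 4715105 to 4718704) stood at 17.8, 13.3 and 14.1 CPM in wild type and 13.5, 16.7 and 16.0 CPM in memory plants. Its log2 fold change was 0.03, with a 95% interval from -0.41 to 0.46. DRM1 had 0 reads in all 6 libraries, a level under the limit of 3 counts given above, and none of its 993 150-base exon windows occurs elsewhere in the nuclear genome. RDM1, a subunit of the DDR complex that joins the Pol V and methyltransferase steps, was at 6.65 ± 1.54 and 7.87 ± 1.61 CPM (SD, n = 3 each).

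SUVH2 and SUVH9 encode SRA domain proteins that bind methylated DNA and bring in Pol V. Per length, SUVH9 (AT4G13460) was the more abundant in every plant, with a log2 ratio of SUVH2 to SUVH9 between -2.29 and -1.09. It stood at 38.1, 43.9 and 30.8 CPM in wild type against 45.7, 41.2 and 40.0 CPM in memory plants (log2 fold change 0.17, SE 0.159, edgeR adjusted p = 0.717). SUVH2 (AT2G33290) stood at 8.82, 10.8 and 12.7 CPM against 9.83, 7.44 and 9.25 CPM (a log2 fold change of -0.29, SE 0.241, edgeR adjusted p = 0.679). Groups overlapped for both. The 95% interval of the fold change was -0.17 to 0.52 for SUVH9 and -0.81 to 0.24 for SUVH2.

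Among genes of Pol IV and siRNA production, the subunit genes NRPD1 and NRPD2 had fold changes of -0.62 and -0.28 on the log2 scale, and no gene of the step passed. NRPD1 (AT1G63020, chromosome 1, 23354685 to 23362589) encodes the largest subunit of Pol IV. It had 69, 94 and 61 reads in plants 22, 23 and 24 and 46, 33 and 45 in plants 31, 32 and 33, or 12.4, 18.2 and 10.6 against 9.83, 6.64 and 10.4 CPM. Every memory plant was below every wild-type plant, but plants 24 and 33 nearly met. Scaled by library totals alone, plant 33 lay above plant 24, so the groups overlapped. The log2 fold change of NRPD1 was -0.62 (SE 0.270, 95% interval -1.21 to -0.03, edgeR unadjusted p = 0.0408, adjusted p = 0.362). Its unadjusted p was not under 0.05 with library totals, DESeq2 or limma voom. Plant 23 was the highest wild-type plant, and without it the log2 fold change was -0.36 (edgeR adjusted p = 0.509).

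NRPD2 (AT3G23780, chromosome 3, 8567572 to 8574209) encodes the subunit that Pol IV and Pol V share. It stood at 51.1, 45.8 and 42.5 CPM in wild type and at 40.4, 35.4 and 39.3 CPM in memory plants, again without overlap. The log2 fold change was -0.28 (SE 0.141, 95% interval -0.58 to 0.03, edgeR adjusted p = 0.450), and -0.28 also without plant 23. Of its exon windows 0.677% also occur in the copy AT3G18090. The largest Pol V subunit gene, NRPE1 (AT2G40030), overlapped between the groups, at 20.7, 17.6 and 16.7 CPM against 18.6, 14.5 and 24.5 CPM (a log2 fold change of 0.06, edgeR adjusted p = 0.940). Within a plant, the ratio of NRPD1 to NRPE1 per length was -0.43, 0.35 and -0.35 on the log2 scale in wild type and -0.61, -0.82 and -0.93 in memory plants. The groups did not overlap in this ratio. The difference of -0.65 had an exact permutation p of 0.1, two-sided, which is the smallest that 3 plants against 3 can give. Without plant 23 the difference was -0.40.

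CLSY1, CLSY2 and CLSY3 (annotated as CHR38, CHR42 and CHR31) are SNF2 family genes whose proteins direct Pol IV to its sites. They were low and varied between plants. CLSY2 had 19, 3 and 12 reads against 16, 14 and 18, and its log2 fold change of 0.75 (SE 0.539) became 0.33 without plant 23. CLSY1 had 27, 45 and 50 reads against 20, 24 and 43. CLSY3 had 9, 5 and 21 reads against 9, 13 and 17. None of the remaining genes of the step passed, and their fold changes lay between -0.20 and 0.17. SHH1, whose protein reads H3 lysine 9 methylation for Pol IV, stood at 8.57 ± 0.779 and 7.47 ± 1.16 CPM, the RNA-dependent RNA polymerase gene RDR2 at 9.18 ± 0.814 and 9.53 ± 2.34 CPM, and the Dicer gene DCL3 at 11.7 ± 2.17 and 13.1 ± 3.02 CPM (SD, n = 3 each). HEN1, which methylates the ends of small RNAs, stood at 16.2 ± 2.64 and 15.5 ± 2.42 CPM. SHH1 and DCL3 each overlap an exon of a neighbour on the other strand, as do SUVH4, SUVH6, SUVR2, RDM1, SUVH2, DRD1, DMS3 and IDM1. The library kit does not mark strand, so reads of these neighbours cannot be told apart there.

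In the Pol V and Argonaute step 0 of 7 tested genes passed, with 5 positive and 2 negative fold changes and a median of 0.06. DMS3 (AT3G49250), a subunit of the DDR complex, had the smallest p. It stood at 7.92, 6.96 and 13.2 CPM in wild type and 6.62, 8.45 and 7.63 CPM in memory plants, so that wild-type plant 24 alone was high (log2 fold change -0.31, SE 0.291, edgeR adjusted p = 0.722). AGO6 (AT2G32940), an Argonaute gene, stood at 3.78, 1.93 and 3.65 CPM against 3.85, 3.62 and 4.39 CPM (a log2 fold change of 0.33, SE 0.394, edgeR adjusted p = 0.796). Here plant 23 alone was low, and without it the fold change was 0.09.

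AGO4 (AT2G27040, chromosome 2, 11536502 to 11542391) is the main Argonaute gene of the pathway and was the most abundant of the step per length. Its CPM was 60.6, 43.9 and 61.6 in wild type and 57.5, 55.1 and 60.3 in memory plants. The log2 fold change was 0.06 with an interval from -0.28 to 0.40. The log2 ratio of AGO4 to AGO6 per length was 3.94, 4.44 and 4.02 in wild type and 3.84, 3.87 and 3.72 in memory plants, without overlap (difference -0.32, two-sided exact permutation p = 0.1, the smallest possible). Without plant 23 this difference was -0.17. AGO6 had only 10 to 21 reads in a library. Among the other Pol V factors, the double-stranded RNA binding protein gene IDN2 was at 14.1 CPM in plant 23 and at 22.0 to 27.8 CPM elsewhere. The SPT5-like gene KTF1 was high in plants 23 and 33 (16.0 and 16.2 CPM) and at 7.27 to 11.2 CPM in the other 4. DRD1, the SNF2 subunit of the DDR complex, was at 10.5 ± 2.45 and 11.6 ± 1.31 CPM (SD, n = 3 each).

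AGO9, an Argonaute gene known from ovules, was too low to test, with 2, 0 and 3 reads in wild type and 1, 3 and 7 in memory plants. Markers of flower organs were also low, and 8 of them summed to 2.34, 5.03 and 5.74 CPM in wild-type plants 22, 23 and 24 and to 5.98, 11.1 and 13.6 CPM in plants 31, 32 and 33. AP3, a gene of petal and stamen identity, was without reads in wild type and had 4, 7 and 4 reads in the memory plants. The other markers did not all follow it. PI had 8, 3 and 9 reads against 2, 8 and 7, and AG 3, 18 and 6 against 4, 16 and 8. SHP1 had 1, 5 and 1 against 0, 0 and 1. SEP1 had 0, 0 and 6 against 3, 8 and 6, and SEP2 1, 0 and 1 against 5, 7 and 13. SEP3 had 0, 0 and 10 against 10, 8 and 20, and SHP2 had only 1 read, in plant 32. The part of floral tissue in any result here was not tested.

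Of the 6 genes of active demethylation, all tested, none passed. They summed to 301, 323 and 240 CPM in wild type and 256, 225 and 284 CPM in memory plants. Of their fold changes 5 were negative, and the median was -0.21 (-0.10 without plant 23). IDM1 (AT3G14980), a histone acetyltransferase gene whose product guides ROS1, had the smallest p of the step. It stood at 30.9, 28.6 and 29.8 CPM in wild type and at 19.9, 22.9 and 31.0 CPM in memory plants. Plants 31 and 32 were below the narrow wild-type range and plant 33 was just above it (log2 fold change -0.28, SE 0.179, edgeR adjusted p = 0.578). DME (AT5G04560, chromosome 5, 1309099 to 1318520), a DNA glycosylase gene best known from the central cell, stood at 104, 133 and 83.9 CPM against 93.6, 66.8 and 101 CPM (a log2 fold change of -0.30, SE 0.198, edgeR adjusted p = 0.591). Without plant 23, its highest plant, the value was -0.11.

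ROS1 (AT2G36490, chromosome 2, 15307907 to 15314807), the main DNA glycosylase gene of vegetative tissue, is known as a gauge of methylation because its promoter is methylated when the pathway is active and its transcript falls when MET1 or RNA-directed methylation is lost. It stood at 109.6, 101 and 80.9 CPM in wild type and at 87.8, 94.3 and 90.4 CPM in memory plants, all 3 inside the wild-type range. The log2 fold change was -0.10 with an interval from -0.41 to 0.22 (edgeR adjusted p = 0.849). The log2 ratio of ROS1 to MET1 per length was 1.34 ± 0.575 in wild type and 1.37 ± 0.258 in memory plants (SD, n = 3 each, exact permutation p = 1, two-sided).

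DML3 (AT4G34060) was high in some plants of each group and low in others. It was at 18.4, 18.2 and 19.0 CPM in plants 23, 31 and 33 and at 9.90, 7.66 and 9.66 CPM in plants 22, 24 and 32. With all plants the log2 fold change was 0.38 (SE 0.355, edgeR adjusted p = 0.722). Without plant 23 it was 0.83, with an edgeR adjusted p of 0.104, the smallest of any member under any alternative run. DML2 stood at 34.8 ± 5.80 and 31.5 ± 5.52 CPM, and MBD7, a methyl-CpG-binding protein gene of the IDM1 complex, at 7.16 ± 1.74 and 5.38 ± 0.656 CPM (SD, n = 3 each).

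Among the 3 genes that act downstream of or beside methylation, MOM1 and both MORC genes were tested and none passed. MORC1 (AT4G36290), a GHKL ATPase gene, stood at 21.4, 23.4 and 23.7 CPM in wild type and 22.9, 18.1 and 11.8 CPM in memory plants (log2 fold change -0.37, SE 0.220, edgeR adjusted p = 0.540). MORC6 (AT1G19100), of the same family, stood at 8.82, 9.86 and 9.92 CPM against 7.05, 11.7 and 16.9 CPM (a log2 fold change of 0.31, SE 0.292, edgeR adjusted p = 0.723). Wild-type plants were tight for both genes, and memory plant 33 was the lowest of 6 for MORC1 and the highest for MORC6. MOM1, a silencing factor that acts beside DNA methylation, stood at 61.8 ± 13.4 and 55.9 ± 12.2 CPM (SD, n = 3 each).

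The spread among plants of the same group was described for the silencing genes and for all genes. On a log2(CPM + 0.5) scale, the median SD within a group was 0.321 over the 41 tested members and 0.243 over all genes tested, and this contrast was not tested. Such an SD also depends on the number of reads, and the members were not compared with genes of like level. Of the 7 steps, maintenance had the largest value over both groups, 0.525, and among wild-type plants, 0.734. Both values include plant 23, and no spread was computed without it. Among memory plants the value of maintenance was 0.222, below those of the downstream genes (0.470), of the Pol IV step (0.315) and of demethylation (0.284). Plant 23 was the lowest of the 6 plants for 14 members (34.1%) and the highest for 7 (17.1%). It was lowest in 25.6% and highest in 23.7% of all genes tested. The 14 were the 6 maintenance genes and SUVR2, DRM2, RDM1, CLSY2, CLSY3, IDN2, AGO4 and AGO6. The 7 were SUVH5, IBM1, NRPD1, SHH1, DRD1, DME and MOM1, and their median exon length was 4664 bases, against 3050 bases for the 14. The median over all 41 tested members was 3339 bases. Whether transcript length bears on these values was not tested. Memory plant 33 was the highest for 11 members and the lowest for 1, while it was highest in 14.6% and lowest in 15.1% of all genes tested. Wild-type plant 22 was the lowest for 0 of 41 members and in 13.2% of all genes tested.

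**Figure D4:**
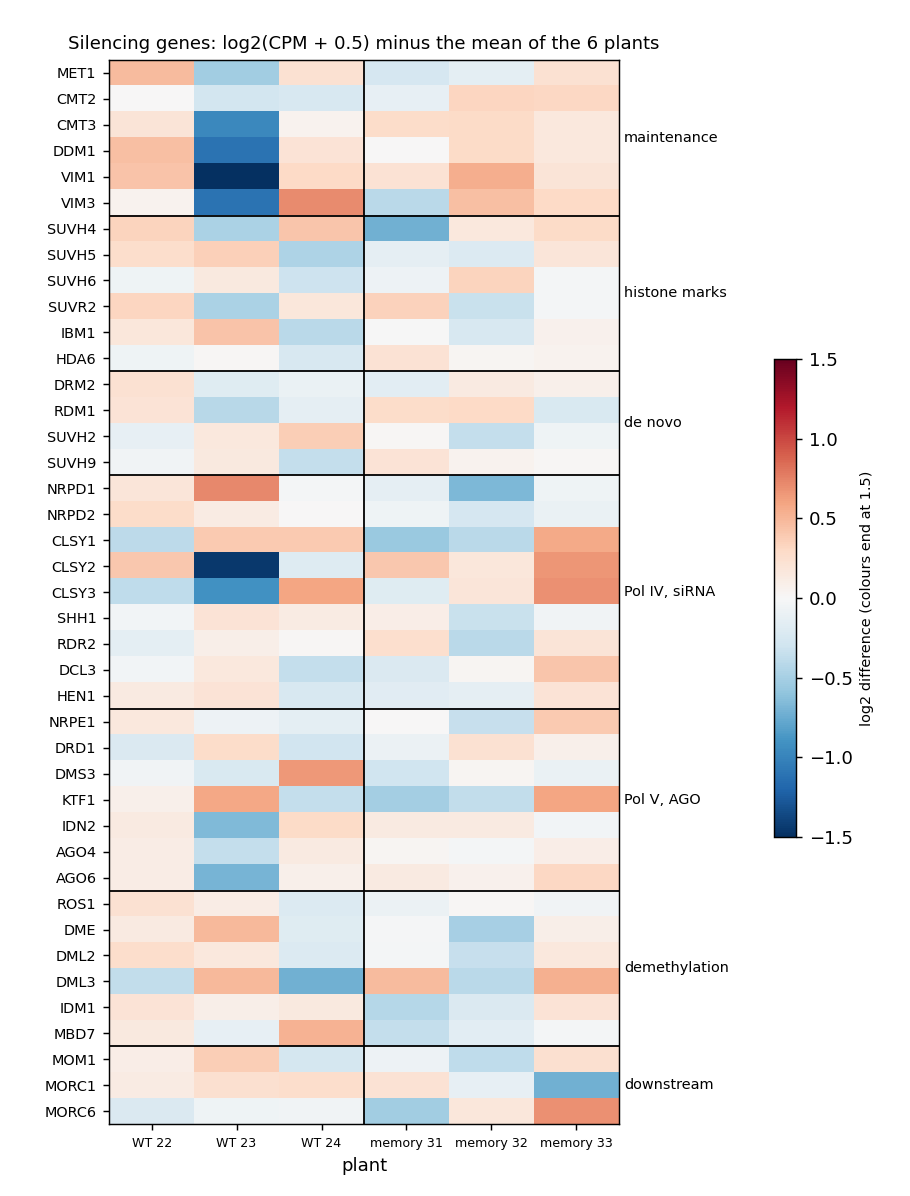
Heat map of the 41 tested silencing genes (rows, by step) in the 6 plants (columns), as log2(CPM + 0.5) minus the mean of the 6 plants, with blue below and red above that mean. The column of wild-type plant 23 is dark blue in rows such as VIM1 and CLSY2, where that plant stood at 23.9% and 17.0% of the median of the other plants, and red in KTF1, where it stood at 196%.

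Of the 9 ratios of paired members computed within plants, 2 did not overlap between the groups, those of NRPD1 to NRPE1 and of AGO4 to AGO6 given above. No such share was computed over other pairs of genes. Among single genes tested, groups did not overlap in 19.7%. Adjusted over the 9 pairs the smallest value of the exact permutation test was 0.45. MORC1 to MORC6 was 1.44, 1.41 and 1.41 on the log2 scale in wild type and 1.86, 0.79 and -0.36 in memory plants. A ratio of DRM1 to DRM2 could not be formed.

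None of the other genes of silencing pathways passed. The list held 55 further genes, among them other Argonaute, Dicer, RNA-dependent RNA polymerase, FDM, SUVH and MORC genes, of which 44 were tested. The test called 0 of 44 (background 1.82%), and 2 had an unadjusted p under 0.05 (background 12.8%). The groups did not overlap in 5 of 44 (background 19.7%). Of the fold changes 21 were positive and 23 negative, and the median was -0.01. Without plant 23, 23 were positive and 21 negative, and the median was 0.02. DESeq2 called 0 of the 52 for which it gave a p, where 2.81% of all genes with an adjusted p passed. FDM2, a relative of IDN2, had the smallest p, at 3.24, 3.09 and 5.39 CPM in wild type and 7.91, 6.64 and 5.55 CPM in memory plants (log2 fold change 0.77, SE 0.340, edgeR adjusted p = 0.365). Its relative FDM3 stood at 10.7 ± 1.41 and 7.73 ± 0.113 CPM (SD, n = 3 each). AGO2, an Argonaute gene of antiviral defence, stood at 24.3, 26.7 and 22.4 CPM against 16.2, 21.1 and 19.0 CPM (a log2 fold change of -0.38, SE 0.170, edgeR adjusted p = 0.376). SGS3, which works with RDR6 in making small RNAs, stood at 25.1 ± 5.63 and 18.8 ± 3.03 CPM. The linker histone gene H1.1 (AT1G06760) stood at 119.5 ± 23.0 and 147.5 ± 8.90 CPM.

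Transcripts of 8 loci that silencing pathways repress were low or at 0 in both groups. Not every one of these loci need give reads when methylation is lost, so their low counts do not measure methylation. FWA, a homeobox gene silenced by methylation of its promoter, had 0 reads in every plant. SDC, an F-box gene silenced by the DRM and CMT enzymes, had 1, 1 and 0 reads in wild type and 0, 1 and 0 in memory plants. QQS, a gene whose expression varies with its methylation, had 12, 6 and 8 reads against 14, 9 and 26. It missed the threshold (log2 fold change 1.17, SE 0.537, edgeR adjusted p = 0.385), and plant 33 was the highest. Without plant 33 the log2 fold change was 0.60, and it was 1.0 to 1.5 when any other plant was left out. The other 5 loci of this list, all annotated as pseudogenes, had at most 3 reads in a library, and AT4G08680, AT1G11265 and AT3G61330 had none. Of these loci AT1G11265, AT3G61330 and AT5G13205 were listed as copies of the element ONSEN. All loci annotated as pseudogenes together took 1318, 1369 and 1030 CPM of the unscaled total in wild type and 1188, 1108 and 1414 CPM in memory plants. Of these 3911 loci, 3548 had no read in any plant, and 86 were tested. AT3G42806 was the 1 called, higher in memory plants (log2 fold change 0.80, SE 0.167, edgeR adjusted p = 0.0330), at 138, 102 and 169 reads against 190, 226 and 184. That is 1.16% of those tested, against 1.82% of all genes. The call was lost without plant 22 (log2 fold change 0.80, edgeR adjusted p = 0.107), plant 31 (0.83, adjusted p = 0.140), plant 32 (0.76, adjusted p = 0.160) or plant 33 (0.80, adjusted p = 0.151).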

How the data were processed

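Messenger RNA of 6 whole plants was sequenced, 1 library each, using TruSeq RNA v2 chemistry, a protocol without strand information, per the labels' protocols. The authors deposited raw counts of reads for each locus. Per the submitters' processing notes, TAIR10 is listed as a build and DESeq2 as a tool. Which aligner and counter were used, and how multiply mapping reads were treated, is not given in the sources used here.

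The silencing genes and lists were chosen with earlier results of these data known. The deposited counts went into edgeR 4.0.16 (R 4.3.3): filterByExpr (minimum count 10, minimum total 15), TMM scaling, robust quasi-likelihood fit, two-sided test, Benjamini-Hochberg adjustment over 16928 genes, threshold 0.05. Replicates are separate plants. SEs and 95% intervals come from the coefficient, its F statistic and the t distribution. CPM is TMM-scaled, and RPKM divides it by exon bases of the RefSeq annotation of TAIR10.1, in which all 44 genes and 32835 of 33602 loci were matched. Positions are 1-based in TAIR10.1, since the files hold none. Ratios of paired genes were tested by exact permutation. Floors of 3 counts cover counting error only. The fit was tested on simulated data. Alternatives were other scalings, no low-count filter, DESeq2 1.42.0, limma 3.58.1 (voom), no robust estimation, and leaving out each plant.

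All 44 genes may be named. Values per plant are given where the groups do not overlap and for the 2 genes of each step with the smallest p; of the other silencing genes the 5 with the smallest p are named. Descriptions of plant 23 and other values per plant were added after the values were seen.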

Additional observations from a re-analysis of the deposited data

How the results depend on the processing

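None of the tested silencing genes passed under any of the 12 alternatives, and none of the other genes of silencing pathways that were tested did (44 to 52 of 55, depending on the alternative). The count over all genes did move. It was 308, against 523 with DESeq2 (2.81% of genes with an adjusted p). When 1 plant was left out it was 34 to 1019, the lowest without plant 31 and the highest without plant 23. The number of members whose groups did not overlap was 3 with all plants and TMM, 2 with DESeq2 size factors and with DESeq2, 4 with library totals, and 6 to 9 (14.6% to 22.0% of members) when 1 plant was left out. The share over all genes was 17.1% to 20.4% with all plants and 26.7% to 34.6% when 1 plant was left out. Library totals in place of TMM moved the median of all genes from 0.01 to 0.07 and turned the sign of SUVR2 (0.031) and HEN1 (0.0042). Of 492 recomputed fold changes of members, 32 changed sign, 11 of them without plant 23, and 21 of 41 members kept their sign throughout. None of these values passed. Over the leave-out fits the log2 fold changes of the genes that changed sign were as follows, lowest to highest: MET1 (-0.39 to 0.056), DDM1 (-0.18 to 0.47), VIM1 (-0.030 to 0.71), VIM3 (-0.28 to 0.61), SUVH4 (-0.42 to 0.078), SUVH5 (-0.40 to 0.016), SUVR2 (-0.23 to 0.14), IBM1 (-0.36 to 0.044), DRM2 (-0.048 to 0.16), RDR2 (-0.077 to 0.25), DCL3 (-0.021 to 0.31), HEN1 (-0.20 to 0.024), NRPE1 (-0.15 to 0.24), DMS3 (-0.48 to 0.027), KTF1 (-0.62 to 0.11), IDN2 (-0.14 to 0.29), AGO4 (-0.080 to 0.14), ROS1 (-0.21 to 0.00015), MOM1 (-0.32 to 0.024) and MORC6 (-0.023 to 0.58). The differences in 2 ratios also changed sign, CMT2 to CMT3 (-0.34 to 0.16) and ROS1 to MET1 (-0.18 to 0.36). Alternatives for the ratios, for the other named silencing genes, for QQS and for AT3G42806 were chosen after seeing the data. No paired analysis was possible because the groups share no plant numbers. CLSY2, CLSY3, AGO6 and SUVH5 had at most 26 reads in a library, and SEs of 0.539, 0.544, 0.394 and 0.386. VIM1 had 28 to 138 reads and an SE of 0.496, and VIM3 had 16 to 70 reads and an SE of 0.437.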
